A study of Mus musculus with 4 samples.

Results

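Prss2, Slc17a6, Klri2, Gldc, Sult2b1 and Ifitm1 are 6 of the 32285 genes counted in droplet single-cell RNA sequencing of immune cells from mouse liver tumours, and all of them were detected in the T cells. They were picked as unusual genes whose T cell levels differed between the libraries, so those levels chose them: their differences between libraries are given here as values, with no test. The tumours were liver metastases of MC38, a mouse colon carcinoma line, in C57BL/6J mice, and the cells were enriched with magnetic beads against CD45, a surface protein of blood cells. Of the 4 libraries, each stood for 1 diet with 1 tumour line: low-fat diet with the WT-MC38 tumour (LFD_WT), low-fat diet with the shYap-MC38 tumour (LFD_shYap), high-fat diet with WT-MC38 (HFD_WT) and high-fat diet with shYap-MC38 (HFD_shYap). The titles call all the mice WT, and the genotype field gives shYap, by its name a short hairpin against Yap, for the tumour line. The labels give neither the number of animals pooled in a library nor their age or sex. For LFD_shYap the title names the low-fat diet while the treatment field of the same record names the high-fat diet. The title was followed here, and each ratio that uses that library rests on it.

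After filtering, 38882 cells were kept, of which 2880 were in T clusters: 528 and 558 in LFD_WT and LFD_shYap, and 963 and 831 in HFD_WT and HFD_shYap, with 2939578 to 6166595 unique molecular identifiers (UMIs, each standing for 1 captured RNA molecule) per library. Among these cells 83.5% to 90.4% had a UMI of Cd3d and 85.9% to 91.5% one of Trbc2, against 2.0% to 4.4% and 2.7% to 5.0% of the phagocytes, at a median of 4561 to 6259 UMIs per T cell. Yap1, the target of the hairpin, had 1, 2, 1 and 0 UMIs in the T cells, so these cells do not check the labels. In the library labelled HFD_shYap, 298 T cells had UMIs of Xist and of no Y-linked gene tested, 284 had Y-linked UMIs and no Xist, and 33 had both, whereas the other 3 libraries held at most 1 T cell with Xist alone. The labels do not mention cells of both kinds in that library. Markers of phagocytes summed to 7639, 4116, 4034 and 1952 CPM (counts scaled to the total of the same cells of that library) in the T cells of LFD_WT, LFD_shYap, HFD_WT and HFD_shYap, which was 12.1%, 5.52%, 7.82% and 4.44% of their level in the phagocytes. Between 33 and 63 cell barcodes were shared by each pair of libraries.

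The 6 genes have no common pathway. Prss2 encodes an anionic trypsinogen, a digestive protease made by the acinar cells of the pancreas, and the trypsinogen genes lie inside the T cell receptor beta (TRB) locus. In a developing T cell, joining a V segment to a D and a J segment deletes the DNA between them, and the joined VDJ exon is then spliced to 1 of 2 constant genes, Trbc1 or Trbc2. Slc17a6 encodes VGLUT2, which loads glutamate into synaptic vesicles. Klri2 encodes a lectin-like receptor of natural killer (NK) cells that pairs with KLRE1 at the cell surface. Gldc encodes glycine decarboxylase, the enzyme of the mitochondrial glycine cleavage system that releases a one-carbon unit to folate. Sult2b1 encodes a sulfotransferase of cholesterol and other sterols, and Ifitm1 a small membrane protein of the interferon-induced antiviral IFITM family.

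Prss2 (ENSMUSG00000057163) is annotated at chr6:41521787-41525079 on the plus strand of GRCm38. It lies 8.12 kb before the diversity segment Trbd1, with 34 annotated Trbv genes on the side away from the constant genes and 1, Trbv31, beyond them. Trbc1 starts 13.1 kb and Trbc2 21.7 kb past it. Because the gene sits beside the joining segments, the 250 bases before its RefSeq start (chr6:41521526-41521775, plus strand, GRCm38.p6) are shown, with the matches to the motifs searched in capitals:

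Prss2 upstream window: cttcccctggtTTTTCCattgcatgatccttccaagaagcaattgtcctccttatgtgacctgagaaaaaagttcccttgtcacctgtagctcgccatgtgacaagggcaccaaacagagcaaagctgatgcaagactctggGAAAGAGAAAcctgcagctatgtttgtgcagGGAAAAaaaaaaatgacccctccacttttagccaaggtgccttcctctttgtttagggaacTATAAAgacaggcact

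The search covered both strands. The AP-1 motif was TGANTCA, and the RUNX motif TGTGGT. For NFAT it was GGAAAA, and for the TATA box TATAAA. The interferon response motif was GAAA, any 2 bases and GAAA again. The window held GGAAAA at 239 and 77 bases before the start (the first on the minus strand, read here on the plus strand), the interferon response motif at 108 bases and TATAAA at 16 bases, and neither of the other motifs. Over all 32851 RefSeq windows of this length, 20.4% held the NFAT motif, 2.98% the interferon response motif, 12.4% the TATA box, 6.75% the AP-1 motif and 14.0% the RUNX motif. A promoter entry was found for 5 of the 6 genes, with 7 windows, and apart from that of Prss2 only 1 of the 2 windows of Sult2b1 held a match (1 AP-1 and 1 NFAT). Such a match describes the letters, not a bound site.

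Prss2 was the most unevenly spread of the 6. It was found in 2 and 13 T cells of the low-fat libraries LFD_WT and LFD_shYap, 94 of HFD_WT and 4 of HFD_shYap, which is 0.379%, 2.33%, 9.76% and 0.481% of the T cells (95% Clopper-Pearson interval in HFD_WT 7.96% to 11.8%). Its level was 0.68, 12.4, 123 and 1.95 CPM, from 2, 49, 701 and 12 UMIs. HFD_WT stood far above the other 3 libraries, and LFD_shYap above LFD_WT and HFD_shYap, whose intervals overlap (0.0824 to 2.46 and 1.01 to 3.40 CPM). HFD_WT was 181-fold above LFD_WT (49.99 to 1499.6), a ratio that rests on the 2 UMIs of LFD_WT. With those set to a floor of 3 counts the log2 ratio was 6.92, and it was 5.05 with T cells taken by a gate on each cell and 5.12 after thinning. HFD_shYap was lower than LFD_shYap by 2.68 on the log2 scale, which is 6.40-fold (3.35 to 13.2), and the log2 ratio was -4.37 within Cd8-gated cells. The intervals here and below cover counting error only, and with 1 library for each diet and line no replicate shows how much libraries of one kind vary.

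The positive cells of HFD_WT were not a thin scatter of single molecules: 14 had 1 UMI of Prss2, 18 had 2 to 4, 35 had 5 to 9 and 27 had 10 or more, up to 25 in 1 cell. Thinning every cell to 2000 UMIs gave shares of 0.418%, 1.57%, 8.34% and 0.403%, the same order as before thinning apart from the lowest pair. In phagocytes, which should lack the gene, 31 of 25303 cells had a UMI (0.12%), at median depths above those of the T cells in each library. Of the 13 pancreatic acinar markers in the list, 12 had no UMI in any T cell, and the only one detected was Cela1. The other trypsin genes of the locus (Try4, Try5, Try10, Prss1, Prss3, Gm5771 and Gm10334) also had 0 UMIs in T cells, although reads that fit several of these near-identical copies could be lost or split in the counting. NK cells held Prss2 too, at 9.08, 18.7, 23.5 and 6.43 CPM, from 10, 7, 3 and 2 positive of 312, 165, 93 and 72 cells (3.21%, 4.24%, 3.23% and 2.78%). Both the level and the share were thus above those of the T cells in LFD_WT, LFD_shYap and HFD_shYap and below them in HFD_WT; the intervals of the level overlapped in LFD_shYap and HFD_shYap.

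**Figure D1:**
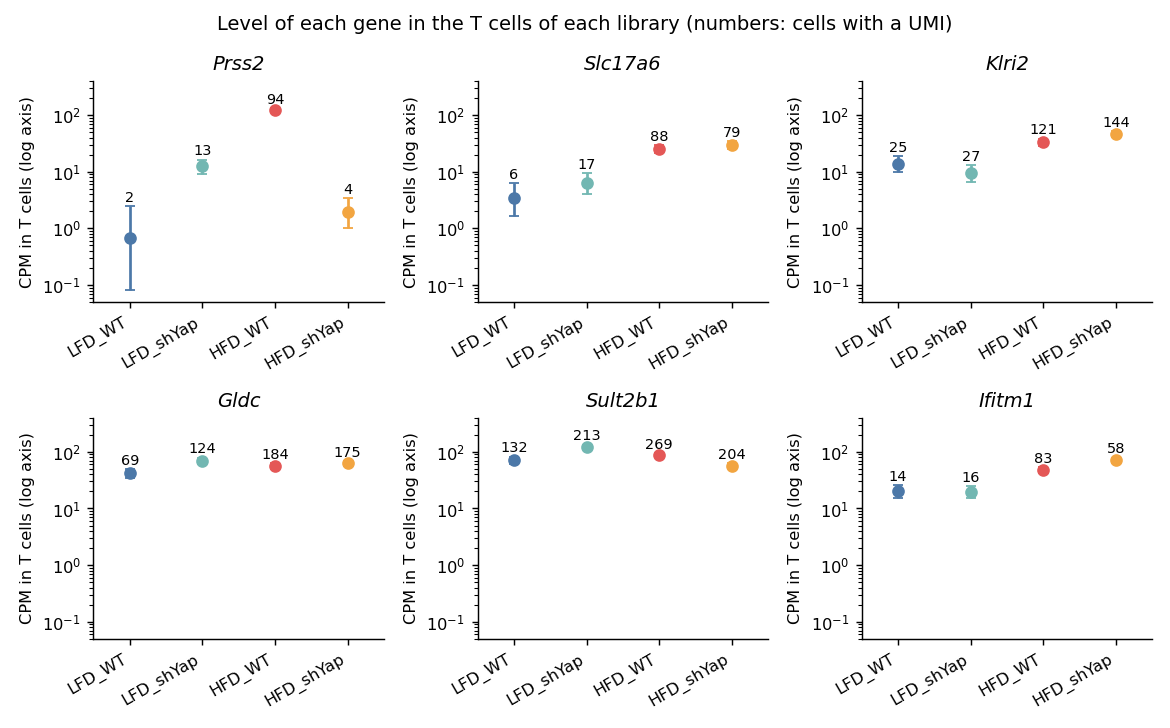
Level of each of the 6 genes in the T cells of the 4 libraries, in CPM on a log axis. Each point is 1 library, the bars are 95% exact Poisson intervals (counting error only), and the number above a point counts the T cells with a UMI of the gene. Prss2 stands at 123 in HFD_WT against 0.68, 12.4 and 1.95 elsewhere, whereas Gldc stays between 41.5 and 69.8.

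Slc17a6 and Klri2 were lower in both low-fat libraries. Slc17a6 had UMIs in 6, 17, 88 and 79 T cells (1.14%, 3.05%, 9.14% and 9.51%) at 3.40, 6.35, 25.2 and 29.7 CPM. The 2 high-fat libraries overlapped in their intervals, and so did the 2 low-fat ones. HFD_WT was 7.40-fold above LFD_WT (3.91 to 15.8) and HFD_shYap 4.67-fold above LFD_shYap (3.07 to 7.41). After thinning the log2 ratio of the latter pair was 3.08 against 2.22 with all UMIs, a value that rests on 2 positive thinned cells of LFD_shYap. Without the 5 T cells with most Slc17a6 that of the former was 4.38 against 2.89. Those cells held 90% of the 10 UMIs of LFD_WT, so 4.38 is set by the floor of 3 counts. Klri2 had UMIs in 25, 27, 121 and 144 T cells at 13.9, 9.40, 33.4 and 46.4 CPM, 2.40-fold and 4.94-fold higher in the high-fat library of each pair. Both low-fat libraries overlapped in their intervals, while those of the high-fat libraries did not (28.8 to 38.5 against 41.2 to 52.1 CPM). Ifitm1 followed the same order in part, with 14, 16, 83 and 58 positive T cells at 20.1, 19.6, 47.1 and 71.0 CPM, but few cells carried it. In LFD_WT and LFD_shYap 83.1% and 85.7% of its UMIs came from the 5 T cells with most, and in HFD_WT and HFD_shYap 45.9% and 55.5%. One T cell of HFD_shYap held 72 UMIs of Ifitm1, so the CPM of this gene measures a few cells more than the whole class. The log2 ratio of HFD_shYap to HFD_WT was 0.59, but 0.020 after thinning and -0.37 with T cells taken by a gate on each cell.

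Gldc and Sult2b1 were found in many T cells of every library, and their CPM differed less. Gldc had UMIs in 69, 124, 184 and 175 T cells (13.1%, 22.2%, 19.1% and 21.1%) at 41.5, 69.8, 55.9 and 62.3 CPM. LFD_WT was lowest, with an interval of 34.5 to 49.6 CPM just under that of HFD_WT (49.96 to 62.4), and the intervals of HFD_shYap overlapped those of HFD_WT and LFD_shYap. The order depended on depth and on the gate: the log2 ratio of HFD_WT to LFD_WT was 0.43, against 1.15 after thinning and 0.0099 with a gate on each cell, and that of HFD_shYap to HFD_WT was 0.15, against -0.59 after thinning. Sult2b1 was the only one of the 6 that was lowest in HFD_shYap: its positive T cells numbered 132, 213, 269 and 204 (25.0%, 38.2%, 27.9% and 24.5%) and its level was 71.4, 122, 87.1 and 56.9 CPM. LFD_shYap stood above the others, and HFD_shYap was lower than LFD_shYap by 1.10 on the log2 scale, 2.15-fold (1.87 to 2.47).

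Counted at 2-fold or more in CPM, 4 of the 6 genes were higher in HFD_WT than in LFD_WT, against 2.35% of 10219 genes with enough UMIs, and none was lower (2.34% of all). Between HFD_shYap and LFD_shYap 3 were higher (4.04% of all) and 2, Prss2 and Sult2b1, lower (1.12%). Between the tumour lines on the low-fat diet 1 was higher in LFD_shYap than in LFD_WT, which was Prss2 (1.43% higher and 3.53% lower over all genes), and on the high-fat diet 1, again Prss2, was lower in HFD_shYap than in HFD_WT (1.88% lower and 2.24% higher over all genes). The genes were chosen on these contrasts, so nothing is read from the counts. Of the relatives of the 6 genes, no member of the lists of glutamate handling, KLRI partners, glycine and one-carbon metabolism, sulfonation and sterols or the IFITM family was 2-fold or more higher in any of the 4 pairs. Those lower were 1 of 9 glutamate genes, 1 of 11 glycine genes and 1 of 8 sterol genes in HFD_WT against LFD_WT, and 1 of 8 sterol genes in HFD_shYap against LFD_shYap. In LFD_shYap against LFD_WT 1 of 9 glutamate genes, 1 of 8 KLRI partners and 2 of 5 IFITM genes were lower, and in HFD_shYap against HFD_WT 1 of 9 glutamate genes and 1 of 8 KLRI partners.

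HFD_shYap could be split by sex-linked genes. Slc17a6 stood at 39.1 CPM in the cells with Xist only and 22.0 CPM in those with Y-linked UMIs only, 1.78-fold apart (1.25 to 2.55). Ifitm1 stood at 160 and 33.7 CPM, 4.73-fold apart (3.72 to 6.07), with 67.1% of the Xist-side UMIs in 5 cells. Sult2b1 was lower on the Xist side (0.75-fold, 0.59 to 0.96). Over all genes 1.38% were 2-fold or more higher and 2.27% lower on the Xist side. With the Y-linked cells alone, the level of Ifitm1 in HFD_shYap was below that of HFD_WT (log2 ratio -0.48), where with all cells it was above. The animal, the tumour and the sex cannot be told apart in this split.

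The T cells were sorted by their own UMIs. The classes were cells with Cd8a or Cd8b1 and no Cd4 or Foxp3 (1923 in all), conventional Cd4 cells, regulatory cells with Foxp3 and no Cd8a or Cd8b1, and the rest. By this rule a cell with Cd8 UMIs and also Cd4 or Foxp3 UMIs falls in the rest. Most of the positive cells of 5 of the genes lay in the first class, called Cd8-gated. In HFD_WT 96.8% of Prss2-positive, 95.5% of Slc17a6-positive, 95.7% of Gldc-positive, 92.9% of Sult2b1-positive and 91.7% of Klri2-positive T cells were Cd8-gated, against 62.1% to 68.2% of the cells negative for the same gene. For Ifitm1 the shares were 68.7% and 70.9%, with no such tilt. Within Cd8-gated cells the order of the libraries was kept for Prss2 at the top (0.9, 13.5, 149 and 0.7 CPM), for Slc17a6 (4.6, 7.2, 29.8 and 35.2 CPM) and for Klri2 (16.5, 8.1, 39.0 and 60.8 CPM). No regulatory T cell, in any library, had a UMI of Prss2, Slc17a6, Klri2 or Gldc, from 27, 14, 50 and 56 such cells, a count that still allows shares of cells with a UMI of up to 21.4% in LFD_shYap and 5.36% in HFD_shYap, and sets no limit on cells that express the genes below detection. Of Sult2b1 there were 0, 0, 2 and 3 positive regulatory cells.

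The T cells were also split into sub-clusters, found without using the 6 genes or the receptor V, D and J segments. The receptor constant genes, Trbc1 and Trbc2 among them, were not left out. Sub-cluster 4, led in part by Satb1 and Gimap4, held more Cd8a and Cd8b1 (356 CPM) than Cd4 (7.4 CPM). That was below the 649 to 927 CPM of Cd8a and Cd8b1 in sub-clusters 0, 1, 5, 7 and 11. Its cells were not split by the Cd8 gate, so whether its low levels hold among its Cd8-bearing cells was not tested. In it Gldc stood at 0.5 CPM, Sult2b1 at 29.1 CPM, and Slc17a6 and Prss2 had 0 UMIs in 365 cells (which allows up to 0.822% of cells with a UMI). The regulatory sub-cluster 8, led by Tnfrsf4, Ikzf2 and Ctla4, was also low, with 1.0 CPM of Gldc and 6.8 CPM of Sult2b1. Since the libraries take different shares of each sub-cluster (327 of the 483 cells of sub-cluster 1 were from HFD_shYap), levels were compared within libraries, over sub-clusters 0, 1, 4, 5, 6, 7, 8 and 11. Gldc was highest in sub-cluster 1 in each library, at 158, 120, 128 and 104 CPM in LFD_WT, LFD_shYap, HFD_WT and HFD_shYap. Slc17a6 was highest there in LFD_WT (43.1 CPM, 3 positive of 13 cells), HFD_WT (53.2 CPM, 19 of 73) and HFD_shYap (50.8 CPM, 56 of 327), but in sub-cluster 7 in LFD_shYap (11.0 against 6.9 CPM). Klri2 was highest there in HFD_shYap only (81.3 CPM), while in HFD_WT sub-clusters 7, 0 and 1 stood at 46.8, 44.9 and 40.4 CPM. Prss2 in HFD_WT was spread over sub-clusters 0, 1, 5, 7 and 11 with 52, 9, 8, 19 and 5 positive cells, at 218, 108, 88.1, 122 and 178 CPM.

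Outside the T cells the 6 genes parted. Klri2 was higher in NK cells than in T cells of every library (70.6, 124, 141 and 164 CPM), Sult2b1 was at 42.5, 75.5, 88.6 and 64.3 CPM there, and Prss2 was seen in 22 of 642 NK cells (3.43%) against 3.92% of T cells. Gldc and Slc17a6 were nearly absent from NK cells, with 4 and 1 positive of 642. In phagocytes Prss2, Slc17a6, Klri2, Gldc and Sult2b1 reached at most 1.54 CPM, each below its own T cell level, and a larger share of T cells than of phagocytes had a UMI of each in every library. Ifitm1 was chiefly a gene of other cells, at 2022, 2420, 2259 and 2173 CPM in neutrophils, 240 to 361 CPM in the fibroblast-like cells and 36.6 to 89.2 CPM in phagocytes. In phagocytes 15.4% of cells had a UMI of Ifitm1, against 5.94% of T cells, and the phagocyte share was the higher in each library (10.8%, 12.0%, 23.6% and 17.2%). The share of T cells with a UMI of Ifitm1 is thus below that of the phagocytes and is not read as expression in itself. Whether UMIs of Ifitm1 in T cells come from other cells was not tested.

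**Figure D2:**
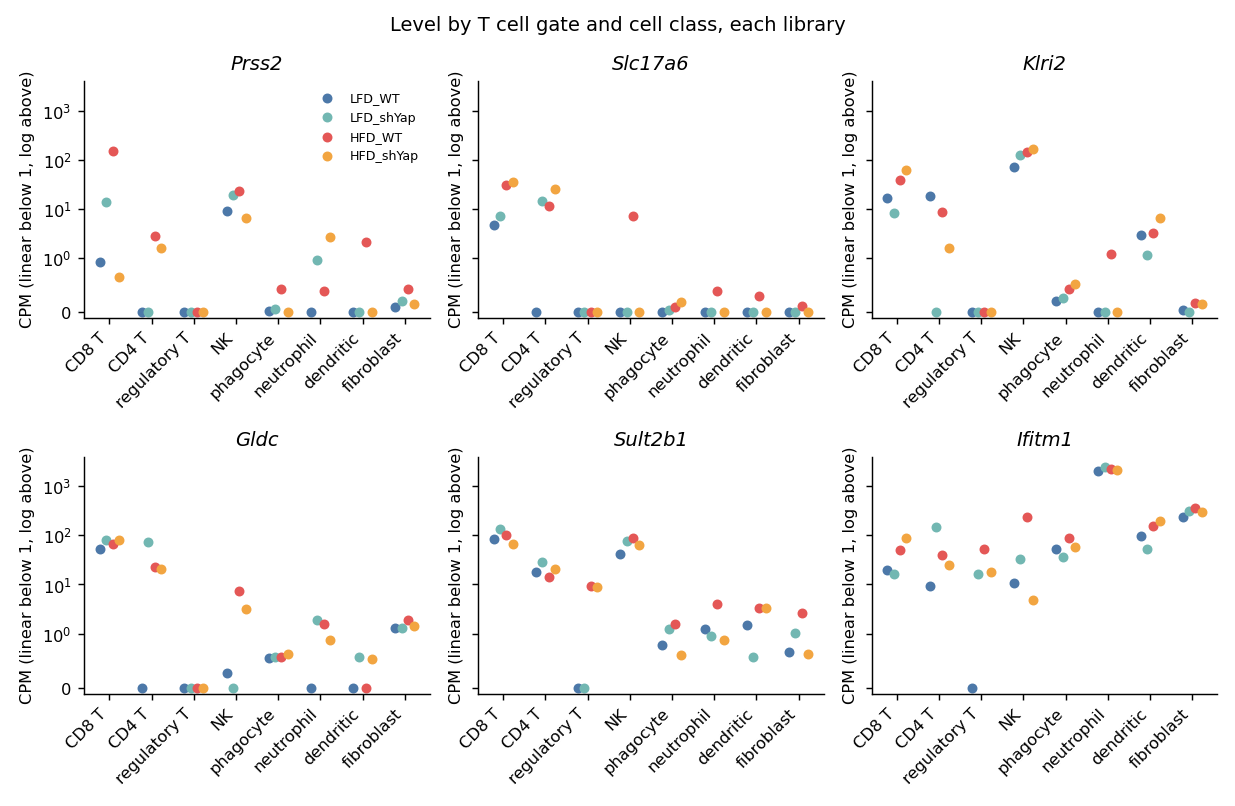
Level of the 6 genes in CPM (linear below 1, log above) in Cd8-gated, conventional Cd4 and regulatory T cells and in 5 other cell classes, with 1 point per library. Klri2, Sult2b1 and Prss2 were also present in NK cells (70.6 to 164, 42.5 to 88.6 and 6.43 to 23.5), and Ifitm1 was highest in neutrophils (2022 to 2420).

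The receptor genes of the Prss2-positive cells stood apart in HFD_WT. Trbc1 and Trbc2 are near-identical, and a read from the shared part can be placed on either copy, so the counts of both are uncertain. With that limit, 76 of 94 Prss2-positive T cells of HFD_WT had UMIs of Trbc2 and none of Trbc1 (80.9%, 71.4% to 88.2%), against 314 of 869 Prss2-negative cells (36.1%, 32.9% to 39.4%). The share grew with the number of Prss2 UMIs: 23 of 32 cells with 1 to 4 UMIs (71.9%), 28 of 35 with 5 to 9 (80.0%) and 25 of 27 with 10 or more (92.6%, 75.7% to 99.1%). Of all Trbc UMIs, Trbc1 took 38.7% in the negative cells, 16.4% in the positive cells and 3.54% in those with 10 or more Prss2 UMIs. Among Cd8-gated cells the shares with Trbc2 alone were 73 of 91 (80.2%) and 199 of 590 (33.7%), so the contrast was as large within 1 gate. The positive cells were also deeper, with a median of 7198 UMIs against 4972.

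The 13 Prss2-positive cells of LFD_shYap were different. Among them 12 had UMIs of both Trbc1 and Trbc2 (92.3%, 64.0% to 99.8%) and none had Trbc2 alone, against 306 of 545 Prss2-negative cells with both (56.1%, 51.9% to 60.4%). In these counts the Prss2-positive cells of the 2 libraries thus lay on opposite sides of the negative cells of their own library. Their NK markers also differed, at 3044.5 CPM in the positive against 521 CPM in the negative cells of LFD_shYap, and 225 against 403 CPM in HFD_WT. The cytotoxic list stood at 4855 against 2376 CPM in LFD_shYap and 2601 against 2569 CPM in HFD_WT. The part of these differences was not tested. Positive cells of LFD_WT and HFD_shYap, 2 and 4, were too few to describe.

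**Figure D3:**
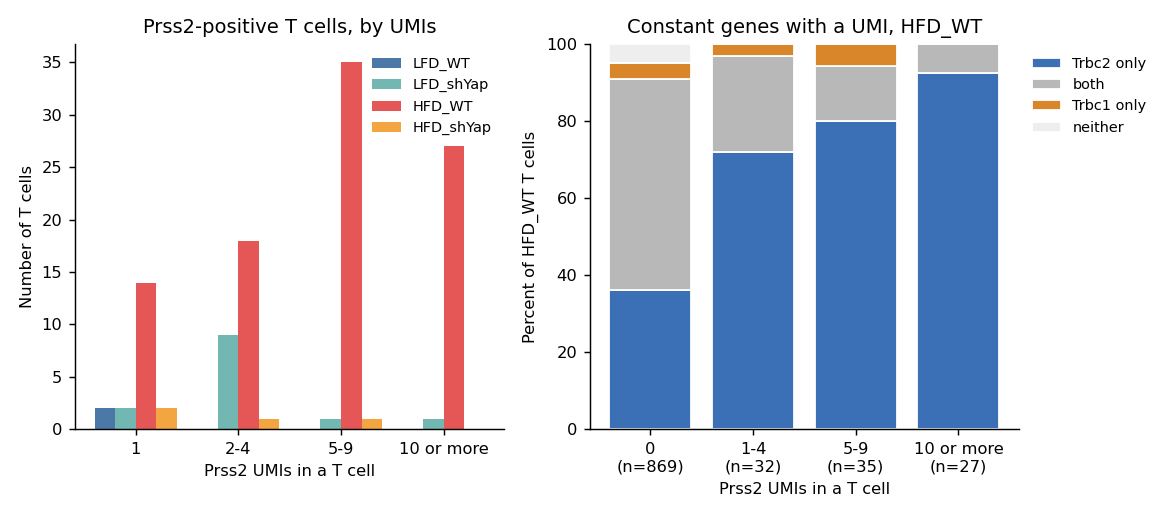
Left, number of Prss2-positive T cells in each library by the number of Prss2 UMIs in the cell. Right, percent of HFD_WT T cells with UMIs of Trbc2 only, of both constant genes, of Trbc1 only and of neither, by the number of Prss2 UMIs. Trbc2 alone is at 36.1% without Prss2 and at 71.9%, 80.0% and 92.6% in cells with 1 to 4, 5 to 9 and 10 or more UMIs.

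A variable segment was seen in few cells, since the 3′ library rarely reaches it: any Trbv gene in 12.1% to 13.3% and any Trav gene in 6.81% to 16.0% of T cells. Where a Trav gene was seen in Prss2-positive cells of HFD_WT, it was Trav10 in 7 of 11 (63.6%, 30.8% to 89.1%) and in 0 of 119 other cells with a Trav gene (upper limit of the 95% interval 3.05%). All 7 cells lacked Trbc1 UMIs and held 4 to 12 UMIs of Prss2. Trav10 was seen in only 10 T cells of the 4 libraries, and the other 3 (1 each in LFD_WT, LFD_shYap and HFD_shYap) had no Prss2. Of all 94 Prss2-positive T cells of HFD_WT, 7 had a Trbv gene, with 6 Trbv genes among them. These 7 were not matched to the cells with Trav10, so the beta segments of the Trav10 cells are not known here. In LFD_shYap, Trav5-4 was seen in 6 of 7 Prss2-positive cells with a Trav gene and in 4 of 31 others, and Trbv1 in 3 of 3 and in 3 of 70. These last counts were too small for the rule that names a segment (at least 10 positive cells) and were picked after their values were seen.

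Segments were also counted for the other genes. Here and above, the segment named is the most frequent among the positive cells, so an excess over the others is partly built in. Sult2b1-positive cells showed none for Trbv13-2 in LFD_shYap (10 of 37 against 9 of 36) or Trav16n in LFD_WT (2 of 15 against 6 of 39). In HFD_WT Gldc-positive cells had Trav16n in 6 of 27 against 10 of 103 and Trbv15 in 5 of 30 against 4 of 87. Other segments that met the rule are not listed. In HFD_shYap 20 of 42 Gldc-positive cells with a Trav gene had Trav16 (47.6%), against 8 of 91 others (8.79%), and Klri2-positive cells had it in 12 of 25 against 16 of 108. Sult2b1-positive cells of the same library were close to the rest, with 7 of 30 against 21 of 103. On the beta side, Trbv26 was seen in 11 of 42 Gldc-positive cells against 6 of 68, Trbv19 in 8 of 27 Klri2-positive cells against 8 of 83, and Trbv12-2 in 4 of 10 Slc17a6-positive cells against 10 of 100. In LFD_shYap Gldc-positive cells had Trbv13-2 in 11 of 26 against 8 of 47. In LFD_WT Trbv16 was seen in 9 of 24 Sult2b1-positive cells against 3 of 46 and in 6 of 21 Gldc-positive cells against 6 of 49. The leading segment thus differed from library to library for Gldc. Cells of 1 clone share their receptor and are not independent, so no test was made.

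Several of the genes were found in the same T cells. At least 1 of the 6 was detected in 36.6%, 51.4%, 53.9% and 48.6% of T cells, and at least 2 in 9.85%, 18.8%, 24.9% and 20.9%. The number of cells with a given pair was compared with the product of the 2 shares in each library and summed. Slc17a6 and Gldc shared 95 cells where the product gives 38.0 (2.50 times), Slc17a6 and Klri2 62 against 25.9 (2.40 times), and Klri2 and Gldc 118 against 62.7 (1.88 times). Gldc and Sult2b1 shared 250 against 159, and their ratio was above 1 in all 4 libraries, from 1.50 to 1.70. Prss2 and Slc17a6, the genes with the highest ratios of HFD_WT to LFD_WT, met in 10 cells against 9.39, and within HFD_WT in 8 against 8.59.

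A cell with more UMIs can show more genes, so the counts were repeated within Cd8-gated cells and at 1 depth. In all T cells 15 of 15 pairs were above 1, in Cd8-gated cells 12, and after thinning to 2000 UMIs 10. Within Cd8-gated cells the Slc17a6 and Gldc ratio was 1.77, Slc17a6 and Klri2 1.72, Klri2 and Gldc 1.34 and Gldc and Sult2b1 1.20, while Prss2 and Slc17a6 stood at 0.75. After thinning, Slc17a6 and Gldc stood at 2.50 (15 cells against 5.99) and Slc17a6 and Sult2b1 at 0.43 (4 cells against 9.31), so this pair, at 1.33 before thinning, lay on the other side of 1. A single T cell held UMIs of 5 of the genes in HFD_WT and 4 did so in HFD_shYap, and no cell held all 6.

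**Figure D4:**
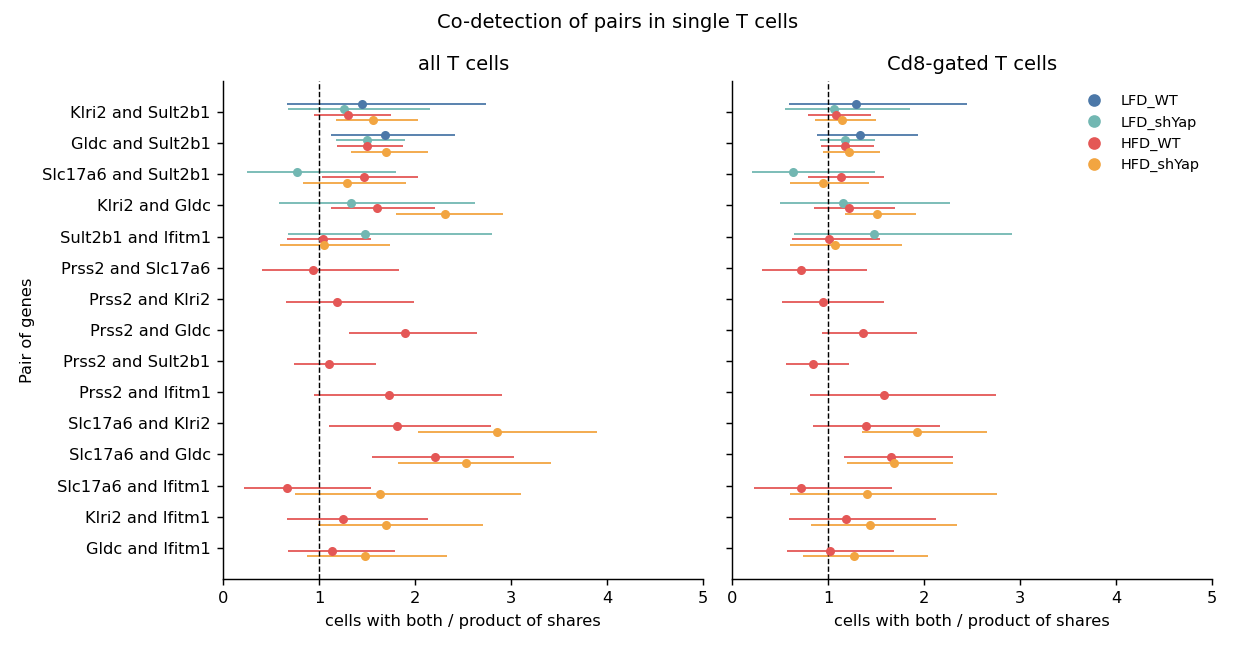
Ratio of the number of T cells with UMIs of both genes of a pair to the number given by the product of their shares, for the 15 pairs, in all T cells (left) and in Cd8-gated cells (right). Each point is 1 library in which the product gives at least 5 of all T cells, the bars are 95% exact Poisson intervals of the count, and the dashed line is at 1. Slc17a6 with Gldc is at 2.20 and 2.52 in HFD_WT and HFD_shYap in all T cells and at 1.66 and 1.68 in Cd8-gated cells.

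The genes that accompany each member were tested within libraries. UMIs were summed over the T cells with and without the gene. The sums were compared with edgeR's quasi-likelihood test, with the library as a block and Benjamini-Hochberg adjustment over all genes tested. The 6 were chosen with earlier results of these data known, so these fits may not be independent of that choice. For the other members of the 6, a fit draws on the same T cells as the co-detection above. The p-values of those members are therefore given as a description, not as a separate test. Prss2 reached 10 positive cells in 2 libraries only and was not fitted. The positive cells were deeper for all 5 genes (for Gldc a median of 6955 to 10090 UMIs against 4322 to 5471), more often Cd8-gated for 4 of them, and lower in phagocyte markers for Gldc (1303 to 4784 CPM against 2284 to 8363), Sult2b1 (1365 to 5815 CPM against 2237 to 8490) and Slc17a6 (1508 to 3087 CPM against 2025 to 4266), so these differences move together with the genes named below, and their part was not tested. The p-values measure the spread between 4 libraries (3 for Slc17a6), each of which gave both sums.

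Gldc-positive cells had the most genes called, with 1074 higher (11.2% of 9610) and 1116 lower (11.6%). After thinning, fewer genes were called for Gldc than for Sult2b1. The fits differed in the number and depth of positive cells, and the part of this in the counts was not tested. The genes with the smallest p among those higher were Nrgn, a calmodulin-binding protein (log2 difference 1.61 ± 0.08 SE, adjusted p = 8.87e-15, edgeR), Prf1, the pore-forming perforin (1.61 ± 0.10), the transcription factor Irf8 (1.23 ± 0.09), the protease inhibitor Serpine2 (2.51 ± 0.19) and the signalling regulator Rgs16 (1.18 ± 0.09). Those lower were Emb (-2.19), the transcription factor Maf (-2.28), the integrin Itgb7 (-2.58), the chemokine receptor Cxcr3 (-4.08) and the egress receptor S1pr1 (-4.77). Of these 10, Serpine2 and Rgs16 lost the call after thinning (adjusted p = 0.283 and 0.257, edgeR). All 9 tested genes of the naive and memory list, which holds Tcf7 (-5.03), Il7r (-2.49) and S1pr1, were lower, with a median log2 difference of -3.03 against 0.0054 over all genes, and also all 9 within Cd8-gated cells and 5 of 8 after thinning. All 11 interferon-response genes tested were lower (median -1.99), with Isg15 at -1.53 and Ifit3 at -2.20, also within Cd8-gated cells, and 2 of 9 after thinning. Of 10 genes of inhibitory receptors and exhaustion 6 were higher (median 0.34), among them Lag3 (0.59), Tox (0.41) and Havcr2 (0.62), and within Cd8-gated cells 3 and after thinning 0. The phagocyte markers were lower in all 10 cases, in 6 within Cd8-gated cells, and in 0 after thinning. All 10 cycling genes were higher, but none after thinning, which left 53 genes called in all. Without HFD_shYap 1233 genes were called. Of the 6 genes, Slc17a6 (1.22), Prss2 (0.80), Klri2 (0.70) and Ifitm1 (0.88) were higher in Gldc-positive cells and Sult2b1 did not pass (adjusted p = 0.109, edgeR). Klri2 lost the call within Cd8-gated cells (adjusted p = 0.173, edgeR), and with DESeq2 so did Prss2, Klri2 and Ifitm1 (adjusted p = 0.981, 0.659 and 0.922). After thinning none of the 4 passed in edgeR. The value of Prss2 rested on HFD_WT and was -0.17 without that library.

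Among 11 tested genes of glycine and one-carbon metabolism, 8 were higher in Gldc-positive cells (median of the list 0.44): Phgdh (0.47), Psat1 (0.56) and Psph (0.35) of serine synthesis, Shmt1 (0.75) and Shmt2 (0.44), which interconvert serine and glycine, and Mthfd1 (0.88), Mthfd1l (0.63) and Mthfd2 (0.40) of the folate cycle. Of the other parts of the glycine cleavage system, Gcsh (0.26) and Dld (0.22) did not pass, and Amt was not among the genes tested. In Cd8-gated cells 2 of 11 were called, Phgdh and Mthfd1, which were also those that passed with DESeq2, and after thinning 0 of 8, with Psat1 at -0.19, Shmt2 at 0.09 and Mthfd2 at 0.10. The neighbour Uhrf2 of Gldc was also higher (0.66 ± 0.08, adjusted p = 4.37e-07, edgeR).

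Sult2b1-positive cells had 630 genes higher (6.68% of 9428) and 779 lower (8.26%). Those higher with the smallest p were the histones Hist1h1b (1.04 ± 0.06 SE), Hist1h2ae (1.001) and Hist1h2ap (0.97), the granzyme Gzmf (2.21 ± 0.17) and Stmn1 (0.66), a tubulin regulator; those lower were the interleukin 7 receptor Il7r (-2.31 ± 0.11), Emb (-1.33), the homing receptor Ccr7 (-1.76), Ly6a (-1.09) and Maf (-1.44). After thinning the 3 histones stood at 0.10, 0.21 and 0.29 and Stmn1 at -0.08, and none of these 4 was called. In Cd8-gated cells Maf stood at -0.24 (adjusted p = 0.471, edgeR). All 9 naive and memory genes were again lower (median -2.06 against 0.0015 over all genes), in Cd8-gated cells also, and 7 of 8 after thinning. Of the inhibitory and exhaustion list 8 of 10 were higher (median 0.38), with Pdcd1 (0.33) and Entpd1 (0.40) among them, but 1 within Cd8-gated cells. Of 12 cytotoxic genes 7 were higher and Klrg1 lower, and within Cd8-gated cells 7 of 11 were higher. The cycling list had 10 of 10 genes higher, and none after thinning, with 92 genes called in all. Without HFD_shYap 865 were called. All 11 interferon-response genes were lower (median -0.69), of which 1 within Cd8-gated cells. The phagocyte markers were lower in 8 of 10 cases (median -0.56), in 5 within Cd8-gated cells and in 1 after thinning. Of the sterol and sulfonation list only the cholesterol exporter Abca1 passed, at -1.004 ± 0.15 (adjusted p = 5.05e-06, edgeR), and it did not pass after thinning; Abcg1 stood at -0.39 and Soat1 at -0.35. Of the 6 genes only Gldc passed in the Sult2b1-positive cells (0.43, adjusted p = 0.00135, edgeR), and it did not within Cd8-gated cells (0.09, adjusted p = 0.783, edgeR) or with DESeq2 (adjusted p = 0.148).

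Klri2-positive cells had 64 genes higher (0.663% of 9655) and 130 lower (1.35%). NK markers, a list that holds Gzma, stood at 1748, 1095 and 370 CPM in the Klri2-positive T cells of LFD_WT, LFD_shYap and HFD_shYap. In the negative ones they stood at 786, 544 and 237 CPM, while in HFD_WT the values were 266 against 402 CPM. The part of NK markers in the genes named below was not tested. Nrgn (1.15), the granzymes Gzmf (2.37), Gzma (1.26) and Gzme (2.61), and Klre1 (0.93 ± 0.11, adjusted p = 1.65e-06, edgeR), the partner chain of KLRI2, were the 5 higher ones; Ly6c2 (-2.13), Maf (-1.95), Gramd3 (-1.39), Itgb7 (-2.32) and Iigp1 (-2.59), an interferon-inducible GTPase, the 5 lower. Of 8 tested KLRI partners 3 were higher, Klre1, Klrd1 (0.48) and Klrk1 (0.55), all of the NK receptor region of chromosome 6, in Cd8-gated cells 1, Klre1, and after thinning 0 of 8 (Klre1 at 0.44, adjusted p = 0.844, edgeR). Of the 9 naive and memory genes tested 6 were lower (median -1.54 against -0.014 over all genes), 7 within Cd8-gated cells and 1 after thinning. Of 11 interferon-response genes 6 were lower (median -0.88), 1 within Cd8-gated cells and 0 of 10 after thinning. In Cd8-gated cells 4 of the 10 named genes lost the call: Maf at -0.62, Gzme at 0.84 and Iigp1 (adjusted p = 0.265, 0.571 and 0.356, edgeR), and Gzma at -0.06, on the other side of 0. With DESeq2 Gzmf, Gzma and Gzme did not pass (adjusted p = 0.443, 0.385 and 0.528). Without HFD_shYap 34 genes were called, and without HFD_WT 103.

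Slc17a6-positive cells had 56 genes higher (0.594% of 9426) and 72 lower (0.764%) over 3 libraries. Nrgn (1.18 ± 0.13, adjusted p = 4.96e-05, edgeR), C2cd4b (1.98), Prf1 (1.03), the histone Hist1h3c (1.12) and Gldc itself (1.20) led those higher. Maf (-1.94), Rgs10 (-1.52), Itgb7 (-2.17), Iigp1 (-2.30) and Ly6c2 (-1.22) led those lower. In Cd8-gated cells Maf (-0.60), Itgb7 (-1.38) and Iigp1 (-0.73) lost the call (adjusted p = 0.401, 0.105 and 0.591, edgeR). Klri2 was higher too (1.13, adjusted p = 0.00732, edgeR), but was called in 3 of 7 settings only, not with DESeq2 (adjusted p = 0.206) and not within Cd8-gated cells (adjusted p = 0.0504, edgeR). Phagocyte markers were lower in 4 of 10 cases, and in 0 within Cd8-gated cells. Of 9 naive and memory genes 7 were lower and 1 higher (median -1.11 against 0.0018 over all genes), and of 11 interferon-response genes 5 were lower; within Cd8-gated cells these were 3 lower and 1 higher, and 1 lower. None of the 6 tested genes of glutamate and glutamine handling passed, with Glud1 at 0.12, Slc1a5 at 0.07 and Glul at -0.65, and no other vesicular glutamate transporter was among the genes with enough counts to test. Of the genes called, 48 of the 56 higher genes (85.7%) were called higher in Gldc-positive cells, where 1074 were called, but both fits use the same libraries and many of the same cells. Without HFD_WT 26 genes were called, without HFD_shYap 81 and without LFD_shYap 332.

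Ifitm1-positive cells had 30 genes higher (0.317% of 9459) and 12 lower (0.127%), and the pattern differed from the rest. Gzmf (4.07 ± 0.17 SE, adjusted p = 1.66e-36, edgeR) and Gzmd (3.97) stood beside the neutrophil genes S100a9 (3.36), S100a8 (3.12) and Retnlg (4.02). Of the 8 neutrophil markers 6 were higher (median 3.13 against -0.037 over all genes), and of 12 cytotoxic genes 6, all granzymes. Within Cd8-gated cells 3 of 4 neutrophil markers and 1 of 11 cytotoxic genes were called, with Gzmd at an adjusted p of 0.356 (edgeR). With DESeq2 S100a9, S100a8, Retnlg and Gzmd did not pass (adjusted p = 0.487, 0.198, 1 and 0.0985). NK markers stood at 3248 and 2603 CPM in the Ifitm1-positive T cells of LFD_WT and LFD_shYap against 726 and 502 CPM in the negative ones, and at 424 and 202 against 374 and 275 CPM in HFD_WT and HFD_shYap, and their part was not tested. The lower genes included the interferon-response genes Ifi27l2a (-0.75) and Ifit1 (-1.29) and the chemokines Ccl5 (-0.55) and Cxcl10 (-0.97). Of these, Ifit1 and Cxcl10 did not pass within Cd8-gated cells. Ifit1, Cxcl10 and Ccl5 (adjusted p = 0.210) did not pass with DESeq2, while Ifi27l2a did (adjusted p = 0.00113, DESeq2). Ifitm1 itself belongs to an interferon-induced family. Its relatives Ifitm2 (0.97) and Ifitm3 (0.65, not called with DESeq2), which lie within 100 kb, were higher, and stood in the T cells of the 4 libraries at 243, 121, 182 and 103 CPM and at 232, 79.2, 170 and 126 CPM. Without LFD_WT 21 genes were called, and without LFD_shYap 23.

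Neutrophil markers were higher in the T cells with most Ifitm1 in 3 libraries, and their part in its T cell level was not tested. They did not rise steadily, at 0, 37.0, 95.3 and 17.3 CPM in cells with 1 UMI and 4706, 0, 2426 and 10.4 CPM at 2 to 4. In the T cells with 5 or more Ifitm1 UMIs (3, 3, 14 and 17 cells), they stood at 3587, 1637, 1898 and 17.6 CPM, against 161, 41.0, 69.9 and 21.5 CPM in the T cells without the gene. Of the cells with 5 or more, only 1, 1, 4 and 0 had 10 or more neutrophil-marker UMIs. HFD_shYap was the exception: its 17 cells had no more neutrophil markers than the rest, 94.1% of them were Cd8-gated, and Gzmf was at 1657 CPM there against 40.9 CPM in cells without Ifitm1. Gzmf was also high in such cells of the other libraries (2347, 7513 and 816 CPM), from 2, 3 and 4 cells. Sub-cluster 13, with 13 cells, held 555 CPM of Ifitm1 and 7016 CPM of neutrophil markers. Leaving out the T cells with 10 or more neutrophil-marker UMIs moved the log2 ratio of Ifitm1 between HFD_shYap and HFD_WT from 0.59 to 1.01.

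**Figure D5:**
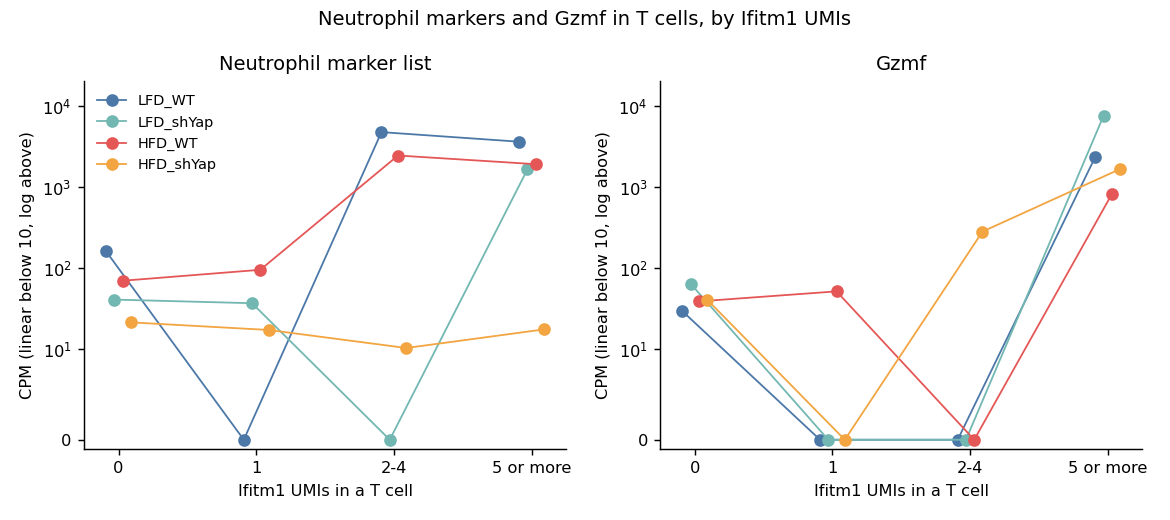
Summed CPM of the 8 neutrophil markers (left) and CPM of Gzmf (right) in T cells grouped by their number of Ifitm1 UMIs, with 1 line per library (linear below 10, log above). At 5 or more UMIs the markers reach 3587, 1637 and 1898 in LFD_WT, LFD_shYap and HFD_WT but 17.6 in HFD_shYap, while Gzmf is between 816 and 7513 in all 4.

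Over 29 sums of a library and a sub-cluster, the genes whose log2(CPM + 10) ran most like each of the 6 were named, as a description over sums that share libraries and depth. They were Wdr95 (r = 0.62), Tstd3 (0.62) and Slc17a6 (0.60) for Prss2, Gdi2 (0.77), Ybx3 (0.73) and Litaf (0.73) for Slc17a6, and Klre1 (0.73), Filip1 (0.73) and Prf1 (0.72) for Klri2. For Gldc they were Tiprl, Nrgn and Srgap3 (0.89 each), for Sult2b1 Nkg7 (0.90), Cd8b1 (0.89) and Tcrg-C2 (0.88), and for Ifitm1 Lrp8 (0.67), Egln1 (0.66) and Ptpn3 (0.65). Among 9476 genes compared, the closest partners of Prss2, Slc17a6, Klri2 and Ifitm1 thus had lower r than those of Gldc and Sult2b1.

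The gene neighbourhoods differed in how many counted genes had 20 or more UMIs in T cells, with 3 of 23 within 100 kb of Prss2 and 8 of 21 within 100 kb of Sult2b1. The 23 near Prss2 include the D and J segments of the TRB locus, of 12 to 54 bases, which had 0 UMIs in T cells. The counts of the neighbourhoods are thus not alike, and the share over all genes was not taken. Within 100 kb of Slc17a6 (chr7:51622006-51671119, plus strand) 0 of 2 counted genes had 20 or more UMIs in T cells, and beside Gldc (chr19:30098447-30175429, minus strand) only Uhrf2 of 3 did. Klri2 (chr6:129729041-129740484, minus strand) had 4 of 6, among them Klrc1, Klrc2 and Gm156, and Ifitm1 (chr7:140967221-140969825, plus strand) had 7 of 12. Sult2b1 (chr7:45729983-45784669, minus strand) is overlapped by Gm31597 and Lmtk3 on the opposite strand, at 16 to 22 and 9.9 to 13.1 CPM in T cells. No source used here says whether the counting used strand, so reads of these genes and of Sult2b1 may not have been told apart, and its counts carry that limit.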

How the data were processed

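The deposited files hold UMI counts per gene and cell barcode, which the authors made with Cell Ranger. The version is 6.0.0 in the file headers, and 4.0.0, with STAR 2.5.1 and build mm10, per the submitters' processing notes. Barcodes with at least 200 genes and under 15% mitochondrial UMIs were kept, from 14779, 11831, 13870 and 9582. Scrublet's automatic threshold called 0, 0, 0 and 2 cells, so the highest-scoring 1264, 793, 1195 and 498 were removed at an expected rate of 0.8% per 1000 cells. Cells were clustered with scanpy 1.11.5 on 2000 variable genes and 30 components, without the 6 genes and the 260 receptor segments, and named from marker lists. The rule that joins markers to a name was settled after the clusters were seen.

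CPM are UMIs scaled to a library's total over all genes in its T cells. Levels have exact Poisson, shares Clopper-Pearson and ratios exact conditional binomial intervals, all at 95%, with a floor of 3 counts per library. Libraries were not tested against each other. Sums over T cells with and without a gene were tested with edgeR 4.0.16 (TMM, filterByExpr, quasi-likelihood, library as block; R 4.3.3), for genes with at least 10 positive cells in at least 3 libraries. This design was tested on simulated data. DESeq2 1.42.0, other filters and gates, and thinning to 2000 UMIs were alternatives. The genes named are, per fit, the 5 with the smallest p in each direction (no mitochondrial, ribosomal, Gm, Rik or clone names), the members of the lists by count with those that passed, the 3 most alike in pattern and the neighbours within 100 kb. The 6 genes and the lists were chosen with earlier results of these data known. Sequences are from RefSeq and positions from GENCODE, both of GRCm38. Proteins were not used here.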

Additional observations from a re-analysis of the deposited data

Results flagged for a closer look

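For 2 of the 6 genes the high-fat and low-fat libraries stood in opposite order in the 2 tumour lines with counting intervals off a ratio of 1 in both, with no test of that difference, since each combination had 1 library. The log2 CPM ratio of Prss2 was 6.92 between HFD_WT and LFD_WT (at a floor of 3 counts in LFD_WT) and -2.68 between HFD_shYap and LFD_shYap. Taken the other way, it was 3.61 between LFD_shYap and LFD_WT and -5.99 between HFD_shYap and HFD_WT. For Sult2b1 the same ratios were 0.29 and -1.10 between the diets, and 0.77 and -0.61 between the tumour lines. The 0.29 is small: 59.2% of the genes compared lay no further from 0. With T cells taken by a gate on each cell, that ratio fell below its interval (0.050 to 0.53). The share of all genes that change order in this way was not counted. Both genes were chosen for their differences between these libraries, and the diet of LFD_shYap is given in 2 ways by its own labels. Gldc also changed order between the tumour lines, at 0.43 in WT and -0.17 in shYap, but the interval of the latter (-0.39 to 0.06) includes 0.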

How the results depend on the processing

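No paired analysis was possible because each combination of diet and tumour line had 1 library, so no 2 groups share replicate numbers, and the library was already the block of each edgeR fit. With T cells taken by a gate on each cell, log2 CPM ratios moved to 5.05 for Prss2, 0.0099 for Gldc, 0.022 for Sult2b1 and 1.95 for Ifitm1 between HFD_WT and LFD_WT, to -0.42 for Gldc between HFD_shYap and LFD_shYap, and to 0.40 for Sult2b1 and -0.64 for Ifitm1 between LFD_shYap and LFD_WT. That of Ifitm1 between HFD_shYap and HFD_WT changed sign to -0.37. Thinned to 2000 UMIs, they were 5.12 (Prss2), 1.15 (Gldc) and 2.55 (Ifitm1) for HFD_WT against LFD_WT, 3.08 (Slc17a6), 1.72 (Klri2) and -1.38 (Sult2b1) for HFD_shYap against LFD_shYap, 1.91 (Prss2), 1.03 (Sult2b1) and 0.71 (Ifitm1) for LFD_shYap against LFD_WT, and 0.17 (Klri2), -0.59 (Gldc) and 0.020 (Ifitm1) for HFD_shYap against HFD_WT. The thinned values of Prss2 rest on 2 positive cells of LFD_WT, and that of Slc17a6 on 2 of LFD_shYap. In Cd8-gated cells they were -4.37 (Prss2), 2.91 (Klri2) and 2.43 (Ifitm1) for HFD_shYap against LFD_shYap, and -7.84 (Prss2) and 0.85 (Ifitm1) for HFD_shYap against HFD_WT. With the Xist-only cells of HFD_shYap the ratio to HFD_WT was 0.64 for Slc17a6 and 1.76 for Ifitm1, and that of Ifitm1 to LFD_shYap 3.03. With its Y-linked cells the ratio to HFD_WT was -0.20 for Slc17a6, -0.30 for Sult2b1 and -0.48 for Ifitm1, and to LFD_shYap -0.79 for Sult2b1 and 0.79 for Ifitm1. Chosen after seeing the data, leaving out the 5 T cells with most UMIs of the gene gave -7.74 for Prss2 and 0.32 for Ifitm1 (HFD_shYap against HFD_WT), 4.38 for Slc17a6 and 2.89 for Ifitm1 (HFD_WT against LFD_WT) and 3.50 for Ifitm1 (HFD_shYap against LFD_shYap). The values of Prss2 and Slc17a6 are set by the floor of 3 counts. The cells left out held 100% of the Prss2 UMIs of HFD_shYap and 90% of the 10 Slc17a6 UMIs of LFD_WT. Leaving out cells with neutrophil markers, also chosen then, gave 1.01 for Ifitm1 (HFD_shYap against HFD_WT). A mitochondrial limit of 10% and keeping doublets moved none of the 24 ratios beyond its interval.

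Genes called in the fits numbered 128, 194, 2190, 1409 and 42 for Slc17a6, Klri2, Gldc, Sult2b1 and Ifitm1. With DESeq2 they were 40, 64, 838, 385 and 8, and in Cd8-gated cells 59, 76, 1126, 351 and 12. Thinning left 12, 53 and 92 for Klri2, Gldc and Sult2b1; for Slc17a6 and Ifitm1 it was not run, since too few cells stayed positive. Without the filter on low counts Slc17a6 had 299, and with doublets kept Klri2 had 328 and Ifitm1 17. Leaving out 1 library at a time gave 26 to 332, 34 to 258, 1233 to 2079, 865 to 1176 and 21 to 45. Signs turned for Gzma in Klri2-positive Cd8-gated cells (-0.059) and, thinned, for Ifitm1 in Klri2-positive (-0.43), Prss2 in Gldc-positive (-0.10) and Stmn1 in Sult2b1-positive cells (-0.079); without HFD_WT Prss2 in Gldc-positive cells was at -0.17, and at 0.91 without LFD_shYap. Thinned co-detection fell below 1 for Prss2 with Gldc (0.93) and Slc17a6 with Sult2b1 (0.34) in HFD_WT, and for Klri2 with Sult2b1 (0.42) in HFD_shYap. The cause of these changes was not tested. Prss2 in LFD_WT rests on 2 UMIs, the fewest of the 4 libraries, and the part of depth in this was not tested.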
